A study of Rattus norvegicus with 18 samples.

Results

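The genes described here encode the AMPA type of glutamate receptor and the proteins that travel with it. They were the rows whose name matched, ignoring case, one of 9 listed symbols, namely the pore-forming subunits Gria1, Gria2, Gria3 and Gria4, the transmembrane AMPA receptor regulatory proteins (TARPs) Cacng2, Cacng3 and Cacng8, and the cornichons Cnih2 and Cnih3. All 9 were present among 31463 rows, and all 9 passed the filter on low counts among 14398 genes tested.

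RNA had been sequenced from primary neuroglial cultures of rat cortex, made from newborn Wistar animals and treated with cytosine arabinoside to limit the glia. The 18 libraries formed 6 groups of 3. Control cultures received neither glutamate nor any other agent named in the labels. In the Glutamate group excitotoxicity, the injury of neurons by excess glutamate, was modelled with 100 µM glutamate on day 10 in vitro. By the study's methods the glutamate was left on for 1 h and then rinsed off, and the labels place RNA collection 4 h after the model. The Memantine group was the positive control, with 100 µM memantine, which blocks the channel of NMDA receptors, given together with the glutamate. Glutamate_vesicles, Glutamate_secret and Glutamate_BPC had been given secreted material of human glial progenitor cells a day ahead of the glutamate. The first of these was extracellular vesicles, whereas the labels leave unsaid how the other two divide between a protein fraction and the whole secretome. Nothing in the labels states that libraries of a group came from separate animals or cultures. The paper says of its experiments in general that they were repeated on unrelated cultures, without naming the libraries. P-values thus measure the spread between these libraries, which may be technical.

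AMPA receptors are tetrameric cation channels that carry most of the fast excitatory transmission in the cortex. The GluA2 subunit, encoded by Gria2, makes the channel nearly impermeable to calcium once its transcript has been edited, and receptors without it admit calcium. TARPs bring the receptors to the surface, anchor them at synapses and slow their closing, and cornichons assist their export and gating.

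Total counts ran from 8409574 in Control 1 to 17206354 in Glutamate_vesicles 2. Ribosomal RNA took 3.04% of the counts in Glutamate_secret 2 and 43.0% in Control 1, which stood apart from every other library. Levels are CPM, counts per 1000000 of a library size scaled by edgeR's TMM factors, which ranged from 0.417 in Control 1 to 1.58 in Memantine 2. Because a CPM value grows with the length of a transcript, levels are compared between groups and not between genes.

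Promoter windows were available from RefSeq for 6 of the 9 genes, those of Cacng2, Cacng3, Cacng8, Gria4, Cnih2 and Cnih3. They are the 250 bases before the annotated start on the rat assembly GRCr8, which is a later build than the rn6 of the authors. Shown are the windows of Cacng3 and Cacng8, the TARP genes with the lowest p-values in Glutamate against Control, and of Cnih2, a gene whose level followed the others weakly. Each is written 5′ to 3′ in the direction of the gene. Capitals mark a GC box (GGGCGG) or an E-box (CAGCTG) found on either strand, and no capitals of these motifs overlap. 
Cacng3, chr1:186632312-186632561, plus strand: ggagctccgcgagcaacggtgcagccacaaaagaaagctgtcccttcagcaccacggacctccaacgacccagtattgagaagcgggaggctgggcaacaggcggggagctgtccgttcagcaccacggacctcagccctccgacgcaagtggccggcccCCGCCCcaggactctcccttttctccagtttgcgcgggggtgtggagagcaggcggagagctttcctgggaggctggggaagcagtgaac
Cacng8, chr1:74691004-74691253, minus strand: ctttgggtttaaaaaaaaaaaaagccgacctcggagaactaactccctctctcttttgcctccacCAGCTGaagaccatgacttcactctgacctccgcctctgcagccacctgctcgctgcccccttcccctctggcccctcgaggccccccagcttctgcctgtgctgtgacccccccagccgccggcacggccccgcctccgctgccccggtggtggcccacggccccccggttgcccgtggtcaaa
Cnih2, chr1:211834438-211834687, minus strand: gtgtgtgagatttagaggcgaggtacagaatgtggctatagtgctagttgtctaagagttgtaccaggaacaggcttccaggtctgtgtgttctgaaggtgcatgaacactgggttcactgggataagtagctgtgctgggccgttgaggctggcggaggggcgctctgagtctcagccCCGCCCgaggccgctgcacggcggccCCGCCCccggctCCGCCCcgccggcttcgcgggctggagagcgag
The Cacng3 window held 1 GC box, at 90 to 85 bases before the start, and Cnih2 held 3, within 71 bases of the start. Cacng8 held 1 E-box and no GC box. Over the 6 windows a GC box lay in 3 and an E-box in 2, while 30.5% and 12% of all 33469 rat promoter windows of this length held them. The letters TGACG (the core of a cAMP response element) and TGANTCA (the AP-1 element), which occur in 18.2% and 6.34% of all windows, were in none of the 6.

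**Figure D1:**
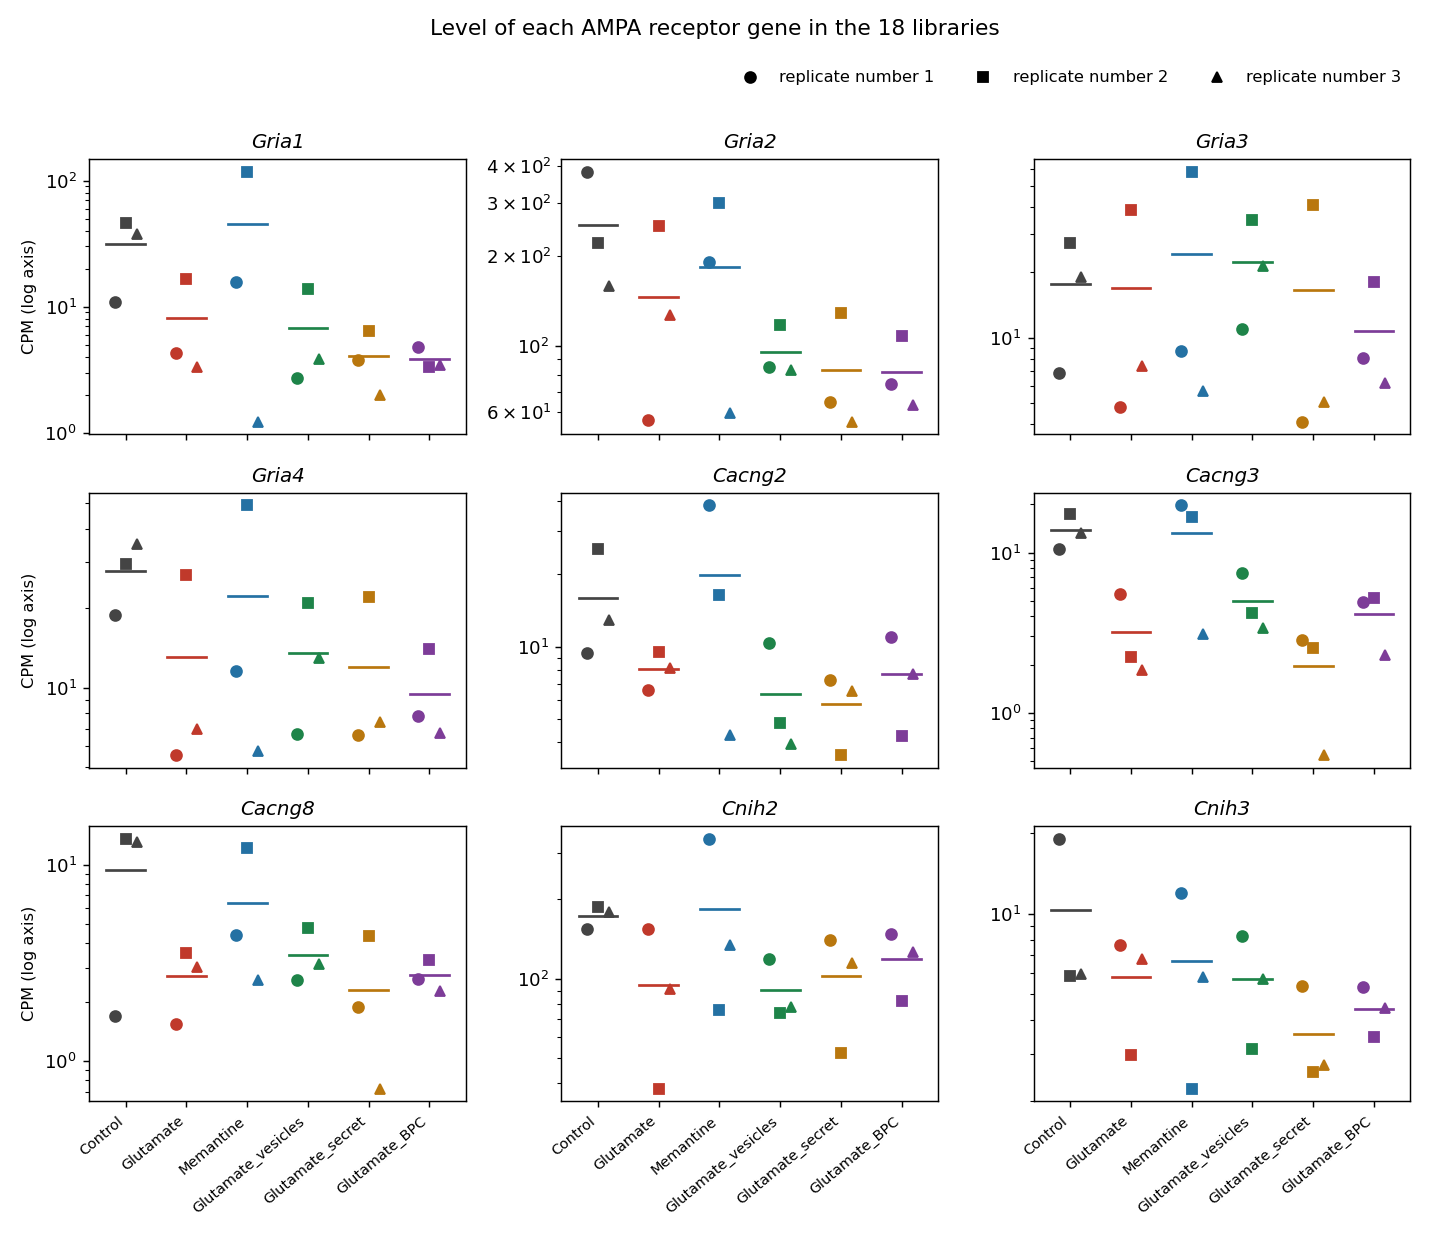
CPM on a log axis of each of the 9 AMPA receptor genes in the 6 groups. Each point is 1 library, its shape gives the replicate number of the label and the line is the group mean. Cacng3 lies between 10.6 and 17.5 CPM in Control and between 1.85 and 5.55 CPM in Glutamate.

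The first question was whether the AMPA receptor genes differed between Control and cultures taken 4 h after the glutamate model. Every one of the 9 had a lower fitted level in Glutamate than in Control, with a median log2 fold change of -0.99 and a range of -2.12 to -0.07. Over all genes tested the median was 0.08, and 44.0% had a lower fitted level. None of the 9 passed the adjusted threshold of edgeR's quasi-likelihood test (Benjamini-Hochberg adjusted p of 0.364 or more), and neither did any other gene (0% of genes called). At an unadjusted p below 0.05, 2 of the 9 were lower, Cacng3 and Cacng8, against 5.97% of all genes. CPM ranges were apart and lower for 2 of the 9, Cacng3 and Cnih2, against 7.76% of all genes.

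Cacng3 encodes TARP γ-3, which is prominent in cortical neurons. It stood at 10.6, 17.5 and 13.3 CPM in Control 1, 2 and 3 and at 5.55, 2.22 and 1.85 CPM in Glutamate 1, 2 and 3. All Control libraries were thus above all Glutamate libraries. The fitted difference on the log2 scale was -2.12 (SE 0.70, adjusted p = 0.364 by edgeR). It was lower in Glutamate within each replicate number, by -0.91, -2.89 and -2.75 on the log2 scale. With the replicate number as a block, although the numbers did not pair these libraries by the criterion in the processing notes, the difference was -2.36 and passed the threshold (adjusted p = 0.0401 by edgeR), as did 1.15% of all genes.

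Cacng8 encodes TARP γ-8, best known from the hippocampus and forebrain. Its levels were 1.71, 13.6 and 13.0 CPM in Control and 1.55, 3.56 and 3.02 CPM in Glutamate. The groups overlapped because of Control 1, where the gene rested on 6 counts. Its log2 fold change was -1.81 (SE 0.76, adjusted p = 0.523 by edgeR), and -2.29 without Control 1 (adjusted p = 0.295). Without Control 2 it was -1.47, no longer below the unadjusted threshold (edgeR adjusted p = 1). Cacng2, the gene of stargazin, the first TARP to be described, had 9.42, 25.4 and 12.9 CPM in Control and 6.59, 9.46 and 8.17 CPM in Glutamate. These ranges overlapped slightly, and the fitted difference was -0.99 (SE 0.65, adjusted p = 0.866 by edgeR).

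Among the pore-forming subunits, Gria1 (GluA1), which is delivered to synapses during potentiation, had the lowest fitted value. It measured 10.8, 46.4 and 37.6 CPM in Control and 4.26, 16.6 and 3.31 CPM in Glutamate. Glutamate 2 was above Control 1, and the fitted difference was -1.97 (SE 1.10, adjusted p = 0.763 by edgeR). Gria2 (GluA2) had 382, 221 and 158 CPM in Control and 56.2, 252 and 127 CPM in Glutamate. Its order differed with the replicate number, being lower in Glutamate 1 by -2.76 and higher in Glutamate 2 by 0.19 on the log2 scale, and the fitted value was -0.80 (SE 0.59, adjusted p = 0.925 by edgeR). For Gria4 (GluA4), typical of fast-spiking interneurons, the fitted value was -1.08 (SE 0.77). For Gria3 (GluA3), which pairs with GluA2 in adult cortex, it was -0.07 (SE 1.02), and leaving out 1 library moved it between -1.55 and 0.38, so that its direction was not fixed.

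The cornichon Cnih2 read 154, 187 and 179 CPM in Control and 154, 38.1 and 91.1 CPM in Glutamate. Its ranges were apart only by the small margin between Control 1 and Glutamate 1, which differed by -0.01 on the log2 scale. The fitted difference was -0.88 (SE 0.56, adjusted p = 0.843 by edgeR). Cnih3, its close relative, had 19.1, 5.84 and 5.98 CPM in Control and 7.62, 2.98 and 6.81 CPM in Glutamate. Here the difference was carried by Control 1, since the log2 fold change of -0.81 (SE 0.64) became -0.03 without it.

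Neuronal marker genes were lower in the same libraries. All 8 pan-neuronal markers (Rbfox3, Snap25, Syt1, Tubb3, Map2, Stmn2, Syn1 and Nefl) were detected in every library, and their summed level was 2042 to 2741 CPM in Control and 578 to 1118 CPM in Glutamate. All 6 markers of excitatory neurons were also detected throughout, with sums of 154 to 433 CPM in Control and 30.8 to 108 CPM in Glutamate. Of these lists 8 and 6 genes had lower fitted values in Glutamate, against 44.0% of all genes tested. At an unadjusted p below 0.05, 5 of each list were lower, against 5.97% of all genes, and the medians were -1.52 and -2.30, against 0.08 over all genes. The 7 astrocyte markers summed to 2923 to 6354 CPM in Control and 5649 to 11250 CPM in Glutamate. The 6 markers of inhibitory neurons summed to 230 to 244 CPM in Control and 70.2 to 114 CPM in Glutamate, and the 7 of the oligodendrocyte lineage to 374 to 665 and 735 to 974 CPM. Sums of the 5 microglial markers were 10.6 to 27.4 and 18.1 to 55.2 CPM, those of 5 fibroblast and mural genes 3.71 to 10.4 and 5.68 to 11.9 CPM, and those of 2 endothelial genes 1.78 to 2.57 and 0.681 to 1.03 CPM. The part of these marker differences in the AMPA receptor values was not tested. In such mixed cultures, fewer neurons and less RNA per neuron cannot be told apart. The cultures carried the defining genes of neurons, astrocytes and the oligodendrocyte lineage in every library, as labelled, while the microglial Itgam and P2ry12 were at 0 in 3 and 2 libraries.

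**Figure D2:**
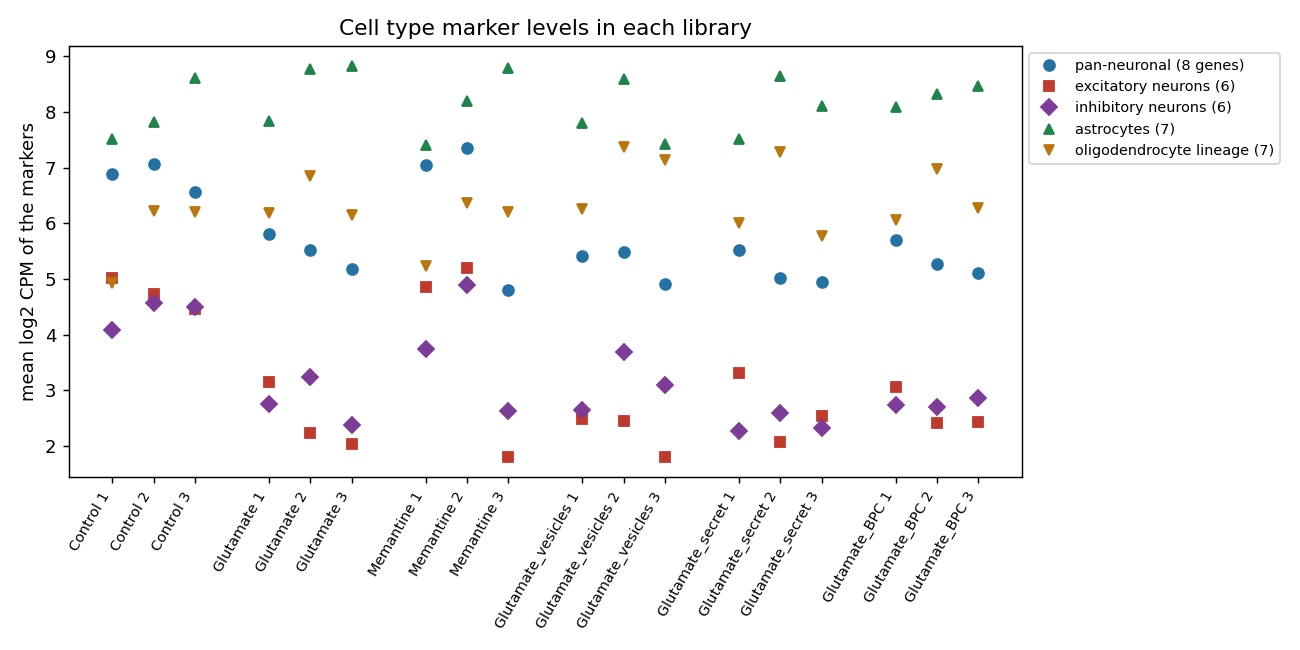
Mean log2 CPM of the pan-neuronal, excitatory, inhibitory, astrocyte and oligodendrocyte lineage markers in the 18 libraries, with a symbol for each list. Pan-neuronal markers average between 6.56 and 7.06 in Control and between 5.17 and 5.80 in Glutamate, and Memantine 3 at 4.80 lies below Memantine 1 and 2.

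Next, cultures that had memantine with the glutamate were set against Glutamate. The fitted level of all 9 genes was higher, with a median log2 fold change of 0.96 and a range of 0.20 to 2.47. Over all genes tested the median was -0.02, and 51.6% had a lower fitted level. The test called none of the 9 (edgeR adjusted p of 0.621 or more) and no other gene (0%). At an unadjusted p below 0.05, 2 of the 9 were higher, Gria1 and Cacng3, against 4.88% of all genes. Every CPM range overlapped that of Glutamate, while ranges were apart and higher for 1.74% of all genes and apart and lower for 1.13%. The replicate numbers paired these libraries by the criterion given in the processing notes, and with the number as a block 3 of the 9 had an unadjusted p below 0.05, against 8.03% of all genes, with a lowest edgeR adjusted p of 0.269.

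The Memantine libraries were far from alike. Gria1 read 15.7, 118 and 1.22 CPM in Memantine 1, 2 and 3, so that the highest and the lowest level of the gene among all 18 libraries were both in this group. Its log2 fold change against Glutamate was 2.47 (SE 1.12, adjusted p = 0.938 by edgeR). Without Memantine 2 it was 0.04 (adjusted p = 1), and without Memantine 3 it was 3.02 (adjusted p = 0.141 by edgeR). Cacng3 read 19.8, 16.8 and 3.09 CPM, the first and second within or above the Control range and the third within that of Glutamate. Its log2 fold change of 2.05 (SE 0.70, adjusted p = 0.621 by edgeR) lay between 1.64 and 2.69 when any 1 library was left out. Without Memantine 3 it was 2.51, with an edgeR adjusted p of 0.0644.

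In 7 of the 9 genes Memantine 3 was the lowest of its group. Gria2 measured 191, 299 and 59.7 CPM in Memantine 1, 2 and 3, Cacng2 measured 38.6, 16.4 and 4.31 CPM, and Cacng8 measured 4.40, 12.2 and 2.59 CPM. The exceptions were the cornichons, with Cnih2 at 340, 75.8 and 134 CPM and Cnih3 at 12, 2.22 and 5.82 CPM, both lowest in Memantine 2. Memantine 3 was also the library with the lowest pan-neuronal mean of all, 4.80 on the log2 scale, against 7.05 and 7.35 in Memantine 1 and 2. The summed pan-neuronal level was 3344, 2192 and 642 CPM in the same order. The part of this marker difference in the spread of the AMPA receptor genes was not tested. For Gria2, Gria3, Gria4 and Cnih3 the direction against Glutamate changed on leaving out 1 library, and for Gria3 it also changed to -0.50 with the share of ribosomal RNA as a covariate.

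Against Control, the Memantine group showed fitted values on both sides of 0 (median -0.07, range -0.61 to 0.51). Of the 9 genes 5 were lower, against 40.1% of all genes. None passed the adjusted threshold (0% of all genes did), and none had an unadjusted p below 0.05, against 1.12% of all genes. With standard errors from 0.55 to 1.06 on the log2 scale, differences of about this size were not detectable.

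A further question was whether the secreted preparations altered these genes under glutamate. In Glutamate_vesicles the 9 fitted differences from Glutamate had a median of -0.03 and a range of -0.61 to 0.65, and in Glutamate_secret a median of -0.50 and a range of -0.97 to 0.12. In Glutamate_BPC the median was -0.39 and the range -1.08 to 0.38. Every CPM range overlapped that of Glutamate. Among all genes, ranges were apart and lower for 3.38%, 2.01% and 4.24% in the same order, and apart and higher for 2.89%, 1.40% and 2.88%. In the 3 comparisons edgeR called 0 of the 9, with 0%, 0% and 0% of all genes called. In this fit without a replicate block, an unadjusted p below 0.05 was reached by none of the 9. Among all genes it was reached by 1.08%, 0.681% and 1.07%.

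Individual values overlapped those of Glutamate, which does not show that the levels were alike. Gria2 had fitted differences of -0.61 with vesicles, -0.81 in Glutamate_secret and -0.82 in Glutamate_BPC (SE 0.59 each). For Gria1 they were -0.25 (SE 1.07), -0.97 (SE 1.09) and -1.08 (SE 1.09). These standard errors come from the fit without a replicate block, and in that fit differences of about this size were not detectable. The replicate numbers paired Glutamate_secret and Glutamate_BPC with Glutamate by the criterion in the processing notes. The fit with the block also called none of the 9 genes there, and its standard errors are not given here. Gria1 was 2.69, 13.8 and 3.84 CPM with vesicles, 3.78, 6.41 and 1.99 CPM in Glutamate_secret and 4.80, 3.29 and 3.47 CPM in Glutamate_BPC. Cacng3 was 7.48, 4.17 and 3.40 CPM with vesicles, 2.84, 2.52 and 0.543 CPM in Glutamate_secret and 4.89, 5.19 and 2.28 CPM in Glutamate_BPC. Its log2 fold change against Glutamate was 0.65 (SE 0.68) with vesicles, -0.66 (SE 0.70) in Glutamate_secret and 0.38 (SE 0.68) in Glutamate_BPC, each with an edgeR adjusted p of 1. The summed pan-neuronal markers lay between 507 and 1045 CPM in these 9 libraries, within or just below the span in Glutamate.

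Comparisons of the same groups with Control used the same Control libraries as the glutamate comparison, so that their values are set side by side and are not independent. The median log2 fold change of the 9 came to -1.34 with vesicles, -1.52 for Glutamate_secret and -1.54 for Glutamate_BPC, where the medians over all genes were 0.03, 0.06 and -0.06. edgeR called 0 of the 9 in each, and called 0.0139%, 0% and 0% of all genes. At an unadjusted p below 0.05, 2 of the 9 were lower with vesicles (7.61% of all genes), 6 in Glutamate_secret (7.61%) and 4 in Glutamate_BPC (7.42%). CPM ranges were apart and lower for 3, 6 and 6 of the 9, against 9.83%, 9.07% and 12.7% of all genes. For the vesicle comparison, whose libraries the replicate numbers paired, the blocked fit gave 7 of the 9 an unadjusted p below 0.05 (19.8% of all genes) and a lowest edgeR adjusted p of 0.0684.

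Gria2 and Cacng3 were below the unadjusted threshold in all 3 of these comparisons. Gria2 read 84.5, 117 and 83.0 CPM in Glutamate_vesicles, 64.7, 128 and 55.6 CPM in Glutamate_secret and 74.3, 108 and 63.1 CPM in Glutamate_BPC, and each was below the lowest Control library, at 158 CPM. Its log2 fold changes were -1.42 (SE 0.60), -1.62 (SE 0.60) and -1.63 (SE 0.60), with edgeR adjusted p-values of 0.363, 0.298 and 0.329. Without Control 1, where Gria2 was highest, they were -1, -1.19 and -1.21, none of them below the unadjusted threshold any longer, with edgeR adjusted p-values of 0.844, 0.392 and 0.617.

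Cacng3 in Glutamate_secret had the lowest p-value of the 9 genes in any comparison, at a fitted difference of -2.78 (SE 0.72, adjusted p = 0.146 by edgeR). In Glutamate_secret 3 it rested on 3 counts. Leaving out 1 library gave values between -3.08 and -2.36. With the replicate number as a block, where the numbers again did not pair the libraries, Cacng3 (-3.06, adjusted p = 0.0155 by edgeR) and Gria2 (-1.73, adjusted p = 0.0436) were called in Glutamate_secret, with 4.86% of all genes. In Glutamate_vesicles and Glutamate_BPC its log2 fold changes were -1.47 (SE 0.68) and -1.74 (SE 0.69). Gria1 had the lowest fitted values, -2.94 (SE 1.15) in Glutamate_secret and -3.04 (SE 1.15) in Glutamate_BPC, and its ranges were apart from Control in both. With vesicles it was -2.22 (SE 1.11) and Glutamate_vesicles 2, at 13.8 CPM, was above Control 1. Cnih3 in Glutamate_secret, at -1.52 (SE 0.66, adjusted p = 0.377 by edgeR), again depended on Control 1, and was -0.74 (adjusted p = 0.592) without it.

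The pan-neuronal markers had lower fitted values in these 3 groups as well, in 8 of 8 genes each. Among all genes 47.8%, 46.5% and 53.0% were lower. The medians of the markers were -1.68, -1.57 and -1.58. Of the 7 oligodendrocyte lineage markers, 4, 2 and 1 were higher and 0 lower in each at an unadjusted edgeR p below 0.05. Among all genes 3.99%, 4.14% and 3.92% were higher and 7.61%, 7.61% and 7.42% lower. The medians of the lineage markers were 1.14, 0.85 and 0.72. The part of these marker differences in the values of the AMPA receptor genes was not tested.

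**Figure D3:**
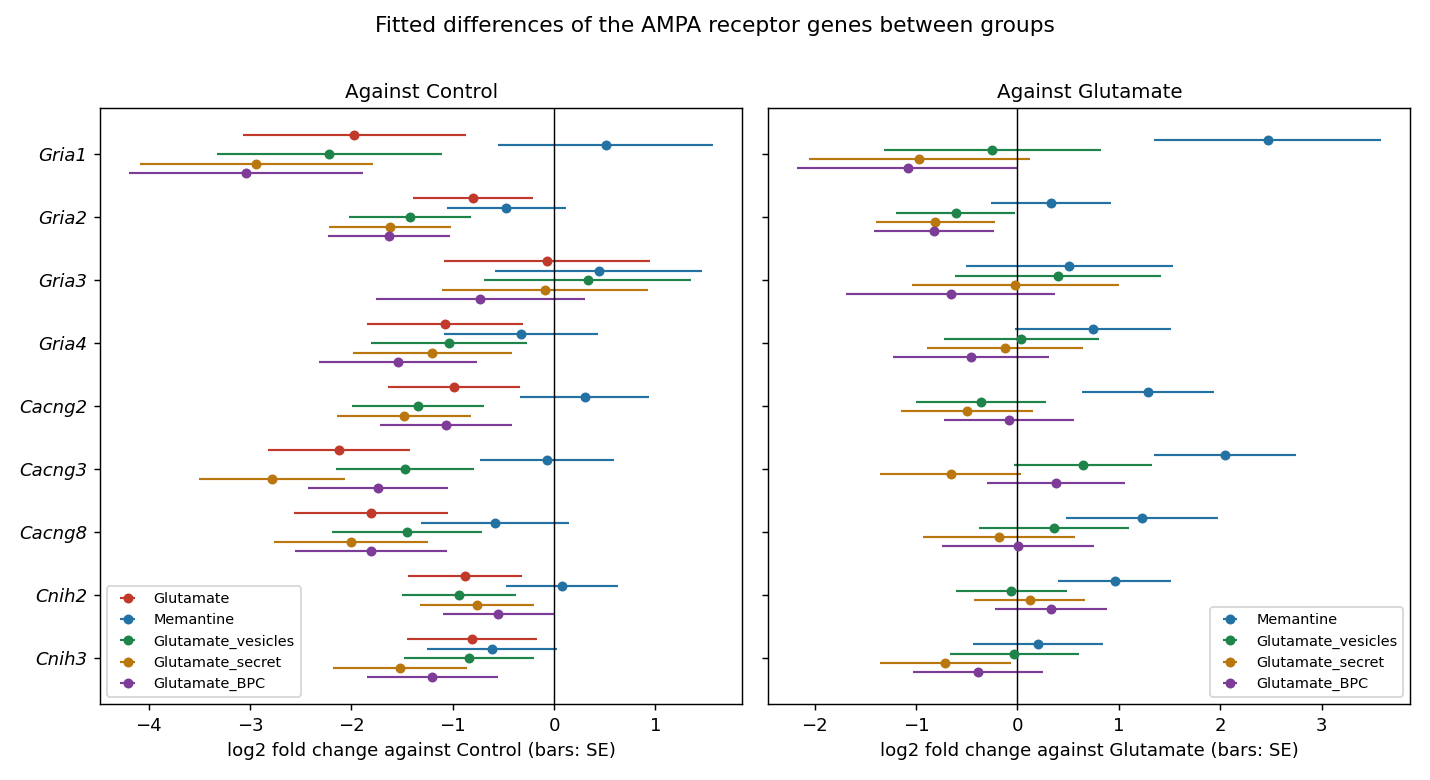
Fitted log2 fold change with its standard error (bars) for each of the 9 genes, on the left for the 5 treated groups against Control and on the right for 4 groups against Glutamate. Against Control the points of Glutamate and the 3 preparations lie at or below 0 except Gria3 with vesicles, at 0.33, and against Glutamate the Memantine points all lie above 0, from 0.20 to 2.47.

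An F test over the 6 groups called none of the 9 genes, with 0.00695% of all genes called. Gria1 (adjusted p = 0.344 by edgeR) and Cacng3 (adjusted p = 0.205) were below the unadjusted threshold, as were 7.75% of all genes. The order of the Cacng3 group means was Control (13.8 ± 3.48 CPM, SD, n = 3), Memantine (13.2 ± 8.89), Glutamate_vesicles (5.02 ± 2.16), Glutamate_BPC (4.12 ± 1.60), Glutamate (3.21 ± 2.04) and Glutamate_secret (1.97 ± 1.24). Neighbours in this order differed by less than the larger SD of the pair. The widest gap, between Memantine and Glutamate_vesicles, came close to the SD of the Memantine group. For Gria2 the order was Control (254 ± 116), Memantine (183 ± 120), Glutamate (145 ± 99.2), Glutamate_vesicles (94.8 ± 19.2), Glutamate_secret (82.6 ± 39.2) and Glutamate_BPC (82.0 ± 23.6), with every step smaller than the larger SD of the pair.

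Calls depended on the tool. In Glutamate against Control, DESeq2 and edgeR's likelihood-ratio test also called 0 of the 9, whereas limma voom with sample quality weights called 8, all but Cnih3, and 42.5% of all genes. The voom weights ranged from 0.16 in Memantine 2 to 8.79 in Glutamate_vesicles 3. With them, 7 of the 9 were called against Control in Glutamate_vesicles (35.9% of all genes), 7 in Glutamate_secret (53.3%) and 7 in Glutamate_BPC (47.3%), 8 in the F test (71.8%), and 1, Gria3, in Glutamate_vesicles against Glutamate (21.1%). The likelihood-ratio test and DESeq2 each called Cacng3 in Glutamate_secret against Control, with 1.55% and 3.12% of all genes called, and each called Gria1 and Cacng3 in the F test, with 4.08% and 4.98%. In the remaining comparisons these tools called none of the 9.

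The make-up of the pore-forming subunits was followed as the share of Gria2 in the summed counts of Gria1 to Gria4, since the GluA2 content governs calcium entry. The counts are not corrected for length, so that a share can be compared between libraries but does not give the share of molecules. In Control 1, 2 and 3 it was 91.3% (95% Wilson interval 89.7 to 92.6), 68.2% (67.0 to 69.3) and 63.4% (62.0 to 64.7). In Glutamate it was 79.4% (75.8 to 82.6), 75.4% (74.3 to 76.6) and 87.8% (86.0 to 89.4). The intervals cover counting error only. The spread between libraries of a group was wider than they are, and the ranges of the groups overlapped.

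The Gria2 share averaged 74.3 ± 14.9% over the Control libraries (SD, n = 3), 80.9 ± 6.31% over Glutamate and 74.5 ± 15.2% over Memantine. They were 70.6 ± 9.13% in Glutamate_vesicles, 75.3 ± 9.13% in Glutamate_secret and 77.7 ± 2.03% in Glutamate_BPC. Two-sided exact permutation tests of the 9 comparisons gave p-values from 0.3 to 1, each with an adjusted value of 1, and 3 against 3 libraries cannot go below 0.1. The difference between Glutamate and Control was 6.60 percentage points (exact p = 0.5) and 15.1 points without Control 1, where p = 0.1 was the smallest value that the exact test allows.

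The other subunits took small shares. Gria1 held 10.7 ± 6.99% of the summed counts in Control and 4.43 ± 1.93% in Glutamate, and its highest share, 22.6%, was in Memantine 2. Gria3 held 5.89 ± 3.71% in Control and 15.6 ± 4.48% in Glutamate_vesicles, and its highest share was 20.7% in Glutamate_secret 2. Gria4 was steadier, with group means from 6.89% to 10.0%.

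**Figure D4:**
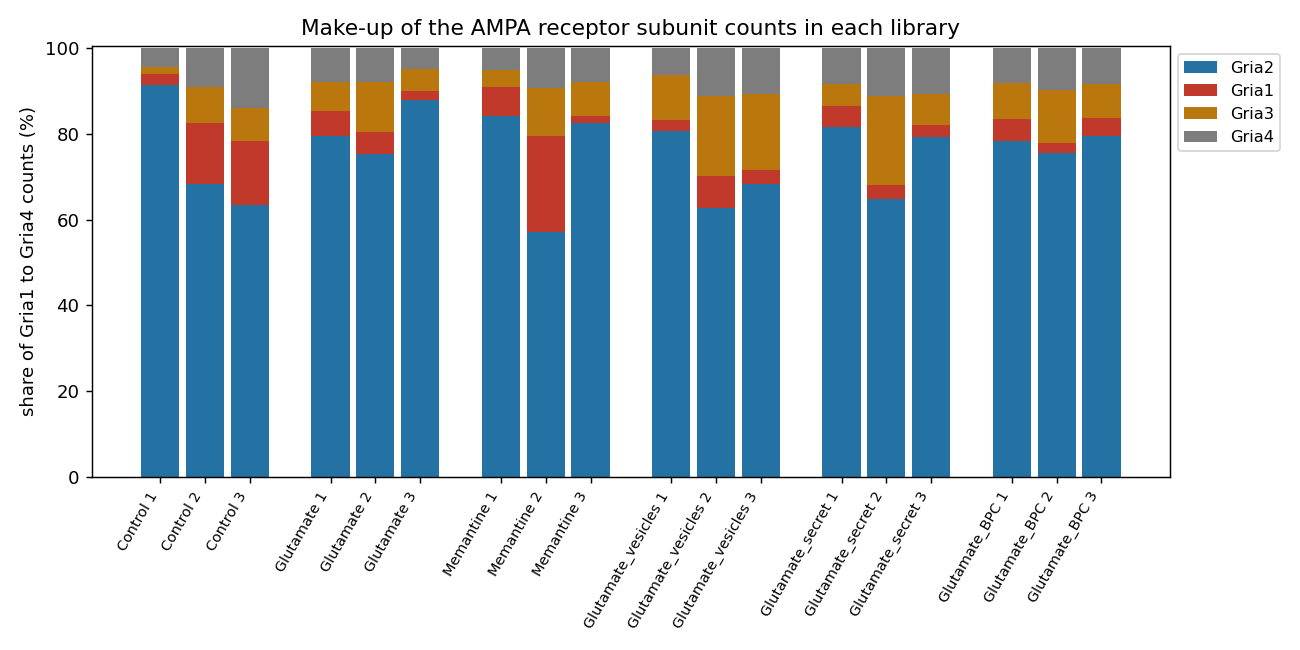
Share in percent of the summed counts of Gria1 to Gria4 that each gene took, as stacked bars, one bar for each of the 18 libraries in the order of the groups. Gria2 takes from 57.0% in Memantine 2 to 91.3% in Control 1.

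Much of the spread within groups went with the replicate number of the labels. Gria3 was between 18 and 58.3 CPM in the 6 libraries numbered 2, between 4.10 and 11 CPM in those numbered 1 and between 5.07 and 21.5 CPM in those numbered 3. In every group the library numbered 2 was the highest for Gria3, and its median was 36.7 CPM against 7.46 and 6.79 CPM. Gria4 showed a median of 24.4 CPM in number 2 against 7.23 and 7.21 CPM. The cornichons had the opposite order, with a Cnih3 median of 3.06 CPM in number 2 against 7.95 and 5.75 CPM, and a Cnih2 median of 74.9 CPM against 151 and 120 CPM. Libraries numbered 2 also had low ribosomal shares, 3.04% to 8.15% against 13.4% to 43.0% in number 1 and 6.58% to 26.6% in number 3. In every group the library numbered 2 also had the highest mean log2 CPM of the 7 oligodendrocyte lineage markers. Those means ran from 6.22 in Control 2 to 7.37 in Glutamate_vesicles 2. They ran from 4.93 to 6.25 in number 1 and from 5.775 to 7.14 in number 3. The labels do not say what a number stands for. The part of the ribosomal share and of these markers in these levels was not tested.

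Because neuronal markers differed between groups, each gene was also expressed relative to them, as its log2 CPM minus the mean log2 CPM of the 8 pan-neuronal markers. This is a description without a test. On that scale Cacng3 had -3.06 ± 0.35 (SD, n = 3) for Control, -3.91 ± 0.54 for Glutamate and -3.04 ± 0.27 for Memantine. It was at -2.98 ± 0.45 in Glutamate_vesicles, -4.34 ± 1.00 in Glutamate_secret and -3.34 ± 0.48 in Glutamate_BPC. Libraries of Control and Glutamate overlapped, since Control 1 was at -3.47 and Glutamate 1 at -3.29. Relative to the 6 excitatory markers, Cacng3 was at -0.96 ± 0.55 in Control and -0.89 ± 0.22 in Glutamate. The lower value in Glutamate was thus not seen against this list. The mean log2 CPM of the 6 excitatory markers was itself lower, at 4.73 in Control and 2.47 in Glutamate. Any gene lowered by less than this list has a higher value on this scale. A rise here is therefore no result about the AMPA receptor genes in particular, and how many of all genes rose was not counted. Each of the other AMPA receptor genes also had a higher mean against the list in Glutamate. Control and Glutamate means were 3.16 and 4.46 for Gria2, -0.78 and 1.03 for Gria3, and 0.03 and 0.9 for Gria4. They were -0.85 and 0.55 for Cacng2, -1.93 and -1.03 for Cacng8, 2.71 and 3.87 for Cnih2, and -1.57 and 0 for Cnih3. Ranges of the Control and Glutamate libraries overlapped for every gene except Cnih3. For Cnih2 they met only narrowly, with Control 3 at 3.03 and Glutamate 2 at 3.02. The share of all genes with ranges apart against the excitatory markers was not counted.

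Gria1 was at -2.09 ± 1.16 in Control and -2.83 ± 1.21 in Glutamate relative to the pan-neuronal markers, and at 0.02 ± 1.36 and 0.20 ± 1.47 relative to the excitatory ones. Gria2 was higher relative to the pan-neuronal markers in Glutamate (1.43 ± 1.27) than in Control (1.06 ± 0.55), by less than its SD. Gria3 stood at -2.89 ± 1.03 in Control and -0.92 ± 0.89 in Glutamate_vesicles, with ranges of -4.08 to -2.28 and -1.95 to -0.36. How many of all genes had ranges apart on this scale was not counted. In CPM the Gria3 ranges of the same groups, 6.85 to 27.3 and 11 to 34.7, overlapped. Cnih2 was at 0.60 ± 0.29 in Control, 0.85 ± 0.96 in Glutamate and 1.5 ± 0.39 in Glutamate_BPC.

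**Figure D5:**
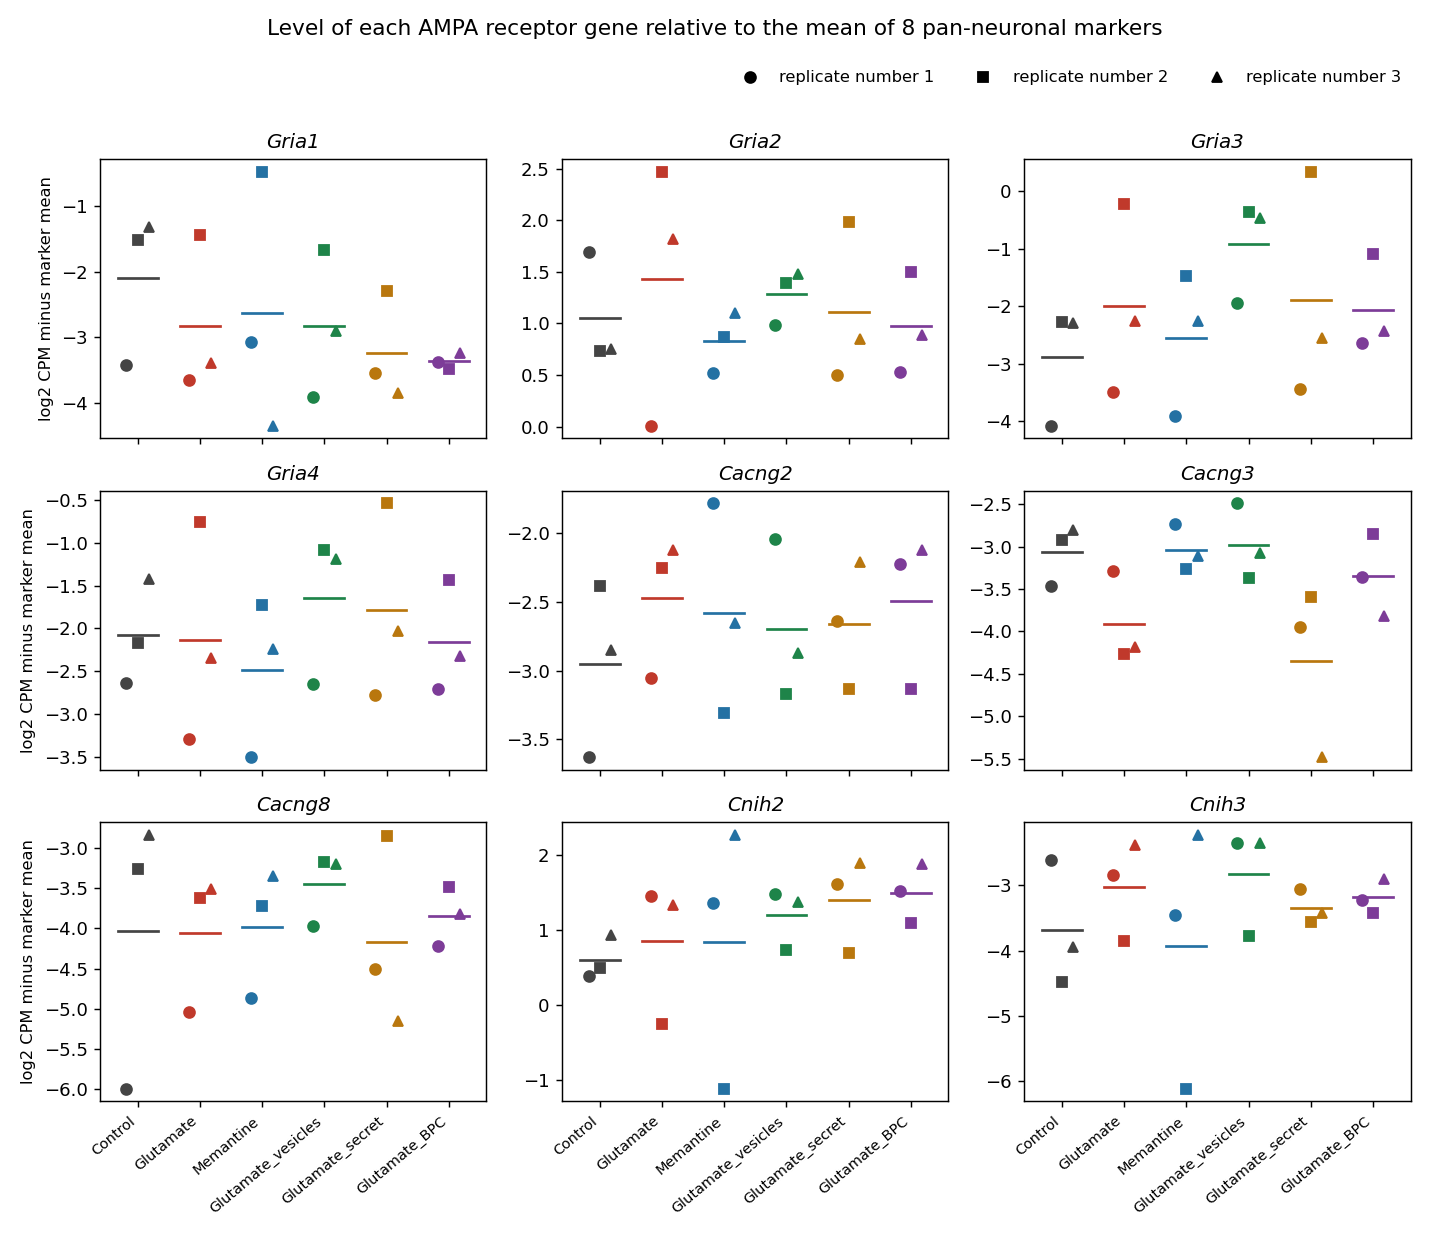
Log2 CPM of each of the 9 genes minus the mean log2 CPM of 8 pan-neuronal markers in the same library. Points are libraries, shaped by replicate number, and lines are group means. Control and Glutamate overlap in Cacng3, with Control 1 at -3.47 and Glutamate 1 at -3.29.

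Another 30 genes of the AMPA receptor pathway were examined, 15 further auxiliary proteins, 13 scaffold and trafficking proteins and 2 enzymes of RNA editing. All 30 were tested and edgeR called none in any comparison. In Glutamate against Control, 12 of the 30 were lower and 0 higher at an unadjusted p below 0.05, against 5.97% and 2.13% of all genes, and the median log2 fold change was -0.67, against 0.08 over all genes. These were 4 auxiliary genes, 7 scaffold genes and 1 editing enzyme. In Memantine against Glutamate, 8 were higher and 0 lower, against 4.88% and 0.201% of all genes, with a median of 0.78, against -0.02. Compared with Glutamate, 1 was higher and 1 lower with vesicles, where 0.479% and 0.597% of all genes were. Of the 30, 0 were higher and 0 lower in Glutamate_secret (0.319% and 0.361% of all genes), and 0 were higher and 1 lower in Glutamate_BPC (0.403% and 0.667%).

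Syndig1, a membrane protein of excitatory synapses that binds AMPA receptors, had the lowest p-value of the list in Glutamate against Control, at 7.76 ± 2.64 CPM in Control and 2.76 ± 0.815 CPM in Glutamate (SD, n = 3 each, log2 fold change -1.49, SE 0.40, adjusted p = 0.282 by edgeR). Camk2b, a subunit of the calcium- and calmodulin-dependent kinase that phosphorylates GluA1 and TARPs, was at 375 ± 73.3 and 116 ± 40.2 CPM (-1.69, SE 0.53, adjusted p = 0.336 by edgeR). In Memantine against Glutamate the lowest p-values belonged to Shisa7, an auxiliary protein of the CKAMP family, and to Adarb1, the editing enzyme of the Gria2 transcript. Shisa7 measured 60.4 ± 43.1 CPM with memantine and 14.3 ± 4.32 CPM without (2.08, SE 0.58, adjusted p = 0.611 by edgeR), and Adarb1 measured 40.6 ± 25.0 and 14.9 ± 2.67 CPM (1.45, SE 0.42, adjusted p = 0.611 by edgeR). Memantine 1, 2 and 3 stood at 95, 74.0 and 12.1 CPM for Shisa7 and at 48.2, 61.0 and 12.7 CPM for Adarb1, so that Memantine 3 was again the lowest of its group and within the Glutamate range. Editing itself cannot be read from gene counts.

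With vesicles, Nptxr, the membrane-bound pentraxin that gathers AMPA receptors, was at 267 ± 163 CPM against 84.1 ± 13.1 CPM in Glutamate (log2 fold change 1.67, SE 0.55, adjusted p = 1 by edgeR). Its vesicle libraries read 202, 146 and 453 CPM, all above Glutamate, and without Glutamate_vesicles 3 the mean was 174 CPM. Gsg1l, an auxiliary protein that lowers receptor conductance, was at 19.4 ± 11.7 against 51.7 ± 26.4 CPM (-1.42, SE 0.67, adjusted p = 1 by edgeR). In Glutamate_BPC, Shisa9, which speeds desensitisation, was at 3.85 ± 0.428 against 7.75 ± 3.90 CPM (-1.02, SE 0.45, adjusted p = 1 by edgeR), and Shisa6 was below 1 CPM in both groups. In Glutamate_secret the lowest p-values, for Syndig1 (0.59, SE 0.40) and Shisa9 (-0.53, SE 0.44), also had an edgeR adjusted p of 1.

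Across the 18 libraries the mean log2 CPM of the 9 genes was followed most closely by Gria1 (Pearson r = 0.935), Cacng3 (0.867) and Cacng8 (0.852), and least by Cnih2 (0.211) and Cnih3 (0.143). Each of these genes is part of the mean. Among 11871 other genes whose log2 CPM averaged 1 or more, the 5 most like the mean included Plk2 (r = 0.969), Lrfn5 (0.969), Gucy1a1 (0.965) and Shank1 (0.964). These values describe libraries that share groups, replicate numbers and neuronal content, and no test is attached to them.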

How the data were processed

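The 18 libraries were sequenced for RNA. The deposited values are expected counts, which the authors made by trimming with Trimmomatic and Cutadapt, quantifying with Salmon in mapping mode on Ensembl rat transcripts and summing to genes with tximport. The submitters' processing notes also name STAR and the build rn6. The paper and the labels name different library kits and instruments, and the sources used here do not state whether counting used strand, so that overlapping genes may share counts.

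Counts were rounded and tested with edgeR 4.0.16 in R 4.3.3 (TMM, filterByExpr with a minimum count of 10 and a minimum total of 15, quasi-likelihood test, one mean per group over all 18 libraries). P-values were adjusted by Benjamini-Hochberg over 14398 genes and called below 0.05. Standard errors are the log2 fold change divided by the root of F. Log2 CPM used a prior count of 2. Alternatives were DESeq2 1.42.0, limma 3.58.1 (voom), edgeR's likelihood-ratio test, other scaling and filtering, 78 ribosomal RNA rows removed or their share as a covariate, a replicate block, and each library left out. The code was checked on simulated counts. No 2 libraries of a group agreed within sampling noise.

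Same-numbered libraries deviated together (every r above 0.1) in Memantine, Glutamate_secret and Glutamate_BPC against Glutamate and in Glutamate_vesicles against Control. In the other 5 comparisons at least 1 r was lower. The main fits had no block in any comparison, so that values are unpaired wherever the block is not named. The study's supplement removed a day effect from counts it displayed, but no source used here says which day a library or its number belongs to, so that pairing was judged from the data.

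The 9 genes, the pathway list and the markers were chosen with earlier results of these data known. From the pathway list, the 2 genes with the smallest p in each of 5 comparisons were named, and the 5 genes most correlated with the mean of the 9, of which 1 is not reported here.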

Additional observations from a re-analysis of the deposited data

How the results depend on the processing

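Scaling by relative log expression, omitting the filter, removing ribosomal RNA rows and fitting only the compared groups left the number of the 9 genes called at 0 in every comparison where they were run. Voom with quality weights called 8 in Glutamate against Control, 1 in Glutamate_vesicles against Glutamate, 7 each in Glutamate_vesicles, Glutamate_secret and Glutamate_BPC against Control, and 8 in the F test. The likelihood-ratio test called 1 in Glutamate_secret against Control and 2 in the F test, DESeq2 called the same numbers, and the ribosomal covariate called 2 in Glutamate_secret against Control. Leaving out 1 library gave 0 to 2 in the F test, with 2 (Gria1 and Cacng3) without Memantine 3, and 0 elsewhere. For the ribosomal covariate and the left-out libraries the share of all genes called is not given here. Those counts are therefore no result about the 9 genes in particular. The causes were not tested.

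The fit with the replicate number as a block called 1 (Cacng3, adjusted p = 0.0401) in Glutamate against Control, 2 (Gria2 and Cacng3) in Glutamate_secret against Control and 1 (Cacng3) in the F test, where the numbers did not pair the libraries by the criterion used. The block changed no other call. For the F test with the block the share of all genes called is not given here.

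Of 30 log2 fold changes under 270 other settings, 2 turned, Cnih3 in Glutamate against Control to 0.15 with voom and Gria3 in Memantine against Glutamate to -0.50 with the ribosomal covariate. With 1 library left out, Gria3 ranged from -1.55 to 0.38 in Glutamate against Control, and in Memantine against Glutamate Gria2 ranged from -0.22 to 1.00, Gria3 from -1.25 to 1.99, Gria4 from -0.61 to 1.82 and Cnih3 from -0.53 to 0.62. Gria1 there was 0.04 without Memantine 2.

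The Gria2 share, taken against Gria1 alone, turned to 0.67 percentage points in Glutamate_secret and 0.52 in Glutamate_BPC against Glutamate and to 7.08 in Glutamate_vesicles against Control. With 1 library left out it ranged from -11.1 to 2.46 in Memantine and from -5.87 to 0.303 in Glutamate_BPC against Glutamate. Against Control it ranged from -5.18 to 9.06 in Memantine, from -9.13 to 4.83 in Glutamate_vesicles, from -4.43 to 9.53 in Glutamate_secret and from -2.01 to 11.9 in Glutamate_BPC. With 3 libraries in a group the spread between them, and in Control 1 and Glutamate_secret 3 the few counts of the TARP genes, limit what could be detected.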
